A study of Mus musculus with 6 samples.

Results

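The AP-1 transcription factors were followed in corneal epithelial cells by the transcripts of 10 genes: Fos, Fosb, Fosl1 and Fosl2 of the Fos family, Jun, Junb and Jund of the Jun family, and Atf3, Batf and Maff. They are 10 of the 17784 genes listed, and they were selected on symbol with their difference between the groups already known, so their values between the groups are given as a description and without a test. The RNA-seq data compared 3 Ptch1-ablated samples with 3 control samples. The Ptch1-ablated mice carried Prrx1-CreERT and floxed Ptch1 alleles (Ptch1 f/f), and the control mice carried Ptch1 f/f. Mice of both groups were given 3 doses of tamoxifen, with an age of 10 weeks in the labels and a treatment of 2 months, and the mice were on a C57BL/6 background. Prrx1-CreERT drives a recombinase, switched on by tamoxifen, in keratocytes, the fibroblast-like cells of the corneal stroma, and in corneal endothelial cells, both of which lie beneath the epithelium that was sequenced. Ptch1 encodes the receptor that holds Hedgehog signaling in check. The epithelium was lifted from the cornea with EDTA before RNA was extracted, as the labels state. The study calls the 3 samples of a group biological replicates, but neither it nor the labels say whether each came from separate animals or pools, so p-values measure the spread between these samples.

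AP-1 is a dimer of basic leucine zipper proteins. Jun proteins pair with themselves or with Fos proteins, whereas Fos proteins need a Jun partner to bind DNA, so the mix of family members in a cell sets which dimers can form. Fos, Fosb, Jun, Junb and Atf3 are immediate early genes, whose transcripts appear within minutes of growth factors, stress or injury, and in stratified epithelia AP-1 acts on genes of differentiation, matrix breakdown and wound response. Atf3 is a stress-induced partner of Jun, Batf is a partner of Jun proteins best known from lymphocytes, and Maff is a small Maf protein that lacks a transactivation domain.

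Of the 10 genes, 9 passed the filter on low counts and 1, Batf, did not. With edgeR's quasi-likelihood test over all 12999 tested genes, an adjusted p up to 0.05 and a fold of 2 or more, the fit called 304 genes higher in Ptch1-ablated epithelium, or 2.34% of genes tested, and 116 lower, or 0.892%. Fos, Fosb and Jun were the 3 AP-1 genes called higher, and 0 were called lower. The selection used this same contrast, so nothing is read from that count. It depended on the samples: without control replicate 2 the fit called 59 genes in all and Jun as the 1 AP-1 gene, without control replicate 3 it called Fosb and Jun, and without control replicate 1 it called Fosb, Jun, Atf3 and Maff. In 5 of the 9 (Fos, Fosb, Jun, Junb and Atf3) all 3 Ptch1-ablated samples lay above all 3 control samples, which held for 19.7% of all genes tested. The median log2 fold change of all genes tested was -0.01.

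The samples were of similar depth, with 20296741 to 20625813 expected counts each, and 3 counts in a sample correspond to 0.145 to 0.148 CPM (counts scaled to library size). Ptch1 itself was present in the epithelium at 517, 659 and 682 normalized counts in control replicates 1, 2 and 3 and at 390, 445 and 471 in the Ptch1-ablated replicates, a log2 fold change of -0.51 (SE 0.13, edgeR adjusted p = 0.0401) that falls short of the fold threshold. The 9 corneal epithelial markers summed to between 105808 and 114128 TPM in control samples and between 94301 and 116324 TPM in Ptch1-ablated samples, where TPM is the transcript abundance scaled for gene length and for depth. Most of the sum came from Krt12, Aldh3a1 and Krt5. Of the 9, 2 were called higher (22.2%, against 2.34% of all genes tested) and 0 lower. They were Krt14 (means of 571 TPM in control and 3824 in Ptch1-ablated samples) and Clu (459 and 891). Stromal markers summed to 8.24 to 35.84 TPM in control samples, with the top value in replicate 3, and to 6.98 to 9.72 TPM in Ptch1-ablated samples. The 9 leukocyte markers summed to 125 to 166 TPM against 153 to 207 TPM, most of it from Itgam (mean 84.5 TPM in control, 114 in Ptch1-ablated samples) and Cd68 (47.1 and 55.2), while the defining marker Ptprc was near 0 (0.087 in both) and Cd74 had 11.3 and 7.84. The 6 conjunctival markers summed to 1403 to 2337 TPM against 2188 to 4683 TPM, most of it from Krt13 (1541 and 2345). Krt4 had means of 160 and 532 TPM and Krt19 of 143 and 366. The groups overlapped for both, and neither was called. For Krt13, Itgam and Cd68 all Ptch1-ablated samples lay above all control samples in normalized counts, and for Krt8 all lay below, but none of these was called. Krt8 had 13.5 and 6.99 TPM and Agr2 11.4 and 8.86. The part of these other cells in the AP-1 values was not tested, and in bulk RNA fewer cells of a type and less RNA per cell cannot be told apart.

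The upstream sequence is shown for Atf3, Fosb, Jun and Fos, which had the largest differences among the tested AP-1 genes with a promoter window. It is also shown for Fosl2, which had the smallest. The choice was made on these differences, so no link between letters and values is read from it. The 150 bases before the RefSeq start site (assembly GRCm38.p6) are printed 5′ to 3′ on the strand of the gene. Capitals mark the core of the cAMP response element (TGACG), the longer site of AP-1 and CREB proteins (TGACNTCA) or the core promoter element TATAAA, each searched on both strands. A TGACGTCA contains TGACG on both strands, so those searches overlap. Fos lies at chr12:85473740-85473889 (plus strand), Fosb at chr7:19310046-19310195 (minus strand), Jun at chr4:95052223-95052372 (minus strand), Atf3 at chr1:191183334-191183483 (minus strand) and Fosl2 at chr5:32136322-32136471 (plus strand).
Fos: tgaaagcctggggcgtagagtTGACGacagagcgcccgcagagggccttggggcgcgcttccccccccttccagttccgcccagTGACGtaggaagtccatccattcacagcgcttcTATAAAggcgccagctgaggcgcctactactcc
Fosb: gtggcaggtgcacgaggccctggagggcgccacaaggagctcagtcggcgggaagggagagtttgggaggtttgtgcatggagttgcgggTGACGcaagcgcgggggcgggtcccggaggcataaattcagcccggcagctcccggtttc
Jun: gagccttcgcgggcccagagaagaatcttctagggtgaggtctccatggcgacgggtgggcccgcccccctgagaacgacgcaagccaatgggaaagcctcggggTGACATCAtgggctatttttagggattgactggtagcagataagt
Atf3: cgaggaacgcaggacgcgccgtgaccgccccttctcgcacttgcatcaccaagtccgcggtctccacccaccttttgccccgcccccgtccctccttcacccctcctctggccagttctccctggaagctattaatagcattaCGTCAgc
Fosl2: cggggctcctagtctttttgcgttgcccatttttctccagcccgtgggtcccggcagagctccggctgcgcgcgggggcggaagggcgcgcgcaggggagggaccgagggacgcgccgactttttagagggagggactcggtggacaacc

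The Fos sequence held TGACG at bases -129 to -125 and -66 to -62, with -1 the base before the start site, and TATAAA at -33 to -28. Fosb held TGACG at -60 to -56, and Atf3 held it on the reverse strand at -7 to -3, printed as CGTCA. Jun held TGACATCA, a form of TGACNTCA, at -45 to -38. None of these was found in the Fosl2 sequence. A window of 250 bases before to 50 after the start was available for 9 of the AP-1 genes (11 windows, since Maff has 3), and not for Fosl1. TGACG was found in windows of 6 of the 9, which are Fos, Fosb, Junb, Atf3, Batf and Maff, against 20.8% of all 32841 windows and 29.7% of the windows of tested genes. TGACNTCA was found in 2 of the 9, Jun and Maff, against 8.83% of all windows. The consensus AP-1 site TGANTCA was found in 0 of the 9, against 7.81% of all windows, and the CArG box, the letters bound by serum response factor, in 0 of the 9, against 1.63%. TATAAA was found in 2 of the 9, Fos and Junb, against 13.6%. TTCNNNGAA, the STAT motif, was found in 1, Maff, against 8.30%, and GGGCGG, the Sp1 box, which is left in lower case here, was found in 7 of the 9 against 35.7% of all windows and 60.4% of those of tested genes. A match of letters is a description and not a binding site, and the absence of a match says only that these letters are not in the window.

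**Figure D1:**
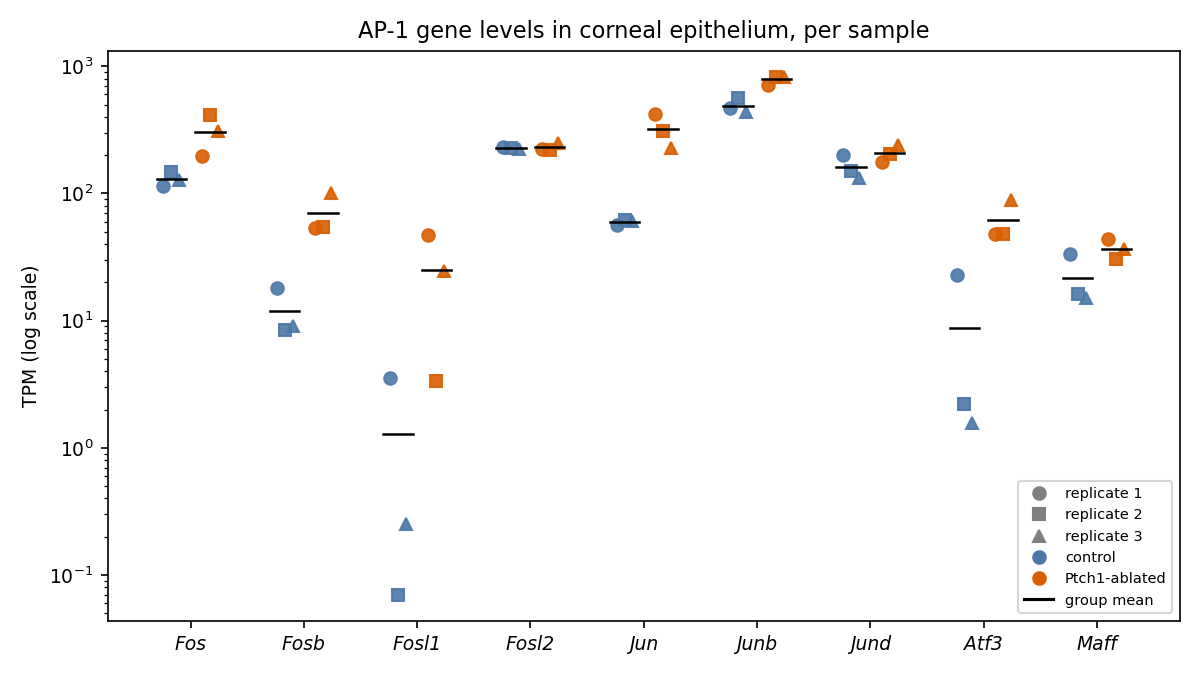
Levels of 9 AP-1 genes in TPM on a log axis, with each point a sample, blue for control and orange for Ptch1-ablated epithelium, the marker shape giving the replicate and black lines the group means. Fosl2 sat at 219.46 to 248.95 TPM in all 6 samples, while Jun moved from 56.92 to 62.21 TPM in control samples to 227 to 421 TPM in Ptch1-ablated samples. Batf, at 0.88 TPM or lower, is not drawn.

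Within the Fos family, Fos and Fosb were higher in every Ptch1-ablated sample than in any control sample, Fosl1 was higher in mean but uneven, and Fosl2 was level. Fos, the founding member and the partner of Jun in the classical AP-1 dimer, measured 115, 146 and 128 TPM in control replicates 1, 2 and 3 and 196, 410 and 308 TPM in Ptch1-ablated replicates 1, 2 and 3. The groups did not overlap, and the Ptch1-ablated samples differed among themselves by 2.10-fold, with replicate 2 the highest and replicate 1 the lowest. Its mean was 130 ± 15.8 TPM (SD, n = 3) in control and 305 ± 107 TPM (SD, n = 3) in Ptch1-ablated epithelium, and the log2 fold change from counts was 1.26 (SE 0.23).

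Fosb, an immediate early gene whose short splice form gives the stable protein ΔFosB, measured 18.22, 8.41 and 9.07 TPM in control replicates and 53.25, 54.67 and 102 TPM in Ptch1-ablated replicates. The lowest Ptch1-ablated sample was 1.59 log2 units above the highest control sample on the scale of normalized counts, and replicate 3 stood above the other two Ptch1-ablated samples, which were nearly equal. The means were 11.9 ± 5.48 TPM and 69.9 ± 27.5 TPM (SD, n = 3 each), with a log2 fold change of 2.57 (SE 0.36).

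Fosl1, which encodes Fra-1, a Fos protein without the transactivation domain of Fos and known from migrating keratinocytes, measured 3.53, 0.07 and 0.25 TPM in control replicates and 46.76, 3.34 and 24.58 TPM in Ptch1-ablated replicates. The expected counts behind these values were 57.28, 1.08 and 3.98 in control and 762, 52.17 and 379 in Ptch1-ablated samples. The groups overlapped, because Ptch1-ablated replicate 2 was below control replicate 1. Its log2 fold change of 4.31 was the largest of the 9, with the largest SE as well (1.18).

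Fosl2, which encodes Fra-2, a Fos protein that like Fra-1 lacks a strong transactivation domain, measured 233, 227 and 222 TPM in control replicates and 224, 219 and 248.95 TPM in Ptch1-ablated replicates. The groups overlapped and were close together, at 227 ± 5.94 TPM and 231 ± 15.9 TPM (SD, n = 3 each), with a log2 fold change of 0.06 (SE 0.07). It was the most abundant Fos family transcript of the control samples and the AP-1 gene with the smallest difference.

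All 3 Jun family genes are made of 1 exon in the GENCODE annotation, as are 2.05% of the 12490 tested genes matched to it, where the median gene has 9 exons, and Fos, Fosb, Fosl1, Fosl2 and Atf3 have 4 exons each. Jun is on chromosome 4, and Junb and Jund are both on chromosome 8. Within this family the differences were graded, from Jun to Junb to Jund.

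Jun, the main transactivating partner of Fos, measured 56.92, 62.21 and 61.08 TPM in control replicates and 421, 309 and 227 TPM in Ptch1-ablated replicates. The lowest Ptch1-ablated sample lay 1.85 log2 units above the highest control sample on the scale of normalized counts, the widest gap of the 9 genes. Control samples were tight, with a standard deviation of 0.036 log2 units, below the median of 0.114 for all genes tested, whereas the Ptch1-ablated samples had a standard deviation of 0.512 against a median of 0.142. The means were 60.1 ± 2.79 TPM and 319 ± 97.1 TPM (SD, n = 3 each), with a log2 fold change of 2.47 (SE 0.24).

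Junb, a weaker activator that can oppose Jun on proliferation genes, measured 469, 563 and 439 TPM in control replicates and 716, 828 and 828 TPM in Ptch1-ablated replicates. The groups did not overlap, and Junb was the most abundant AP-1 transcript in each of the 6 samples. The means were 490 ± 64.6 TPM and 791 ± 64.6 TPM (SD, n = 3 each), with a log2 fold change of 0.73 (SE 0.10), under the fold threshold of the call.

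Jund, the Jun gene usually expressed without a stimulus, measured 199, 151 and 132 TPM in control replicates and 178, 206 and 239 TPM in Ptch1-ablated replicates. Ptch1-ablated replicate 1 was below control replicate 1, so the groups overlapped. Its log2 fold change was 0.40 (SE 0.17).

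Atf3, Maff and Batf are the AP-1 partners outside the Fos and Jun families. Atf3 measured 22.68, 2.23 and 1.58 TPM in control replicates and 48.01, 47.72 and 88.84 TPM in Ptch1-ablated replicates. All Ptch1-ablated samples were higher than all control samples, but control replicate 1 was far above control replicates 2 and 3, with a 14.4-fold range within the control group. The log2 fold change was 2.79 (SE 0.86), and it was 5.05 without control replicate 1.

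Maff measured 33.42, 16.09 and 15.06 TPM in control replicates and 43.64, 30.68 and 36.44 TPM in Ptch1-ablated replicates. The groups overlapped through the same control replicate 1, and the log2 fold change was 0.84 (SE 0.32). Batf was at the edge of detection, with 1, 0 and 1 counts in control replicates and 6, 3 and 7 in Ptch1-ablated replicates. In sums this is 2 counts against 16, a ratio of 8.02 per total count with a 95% interval of 1.89 to 71.9 that covers counting error only.

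**Figure D2:**
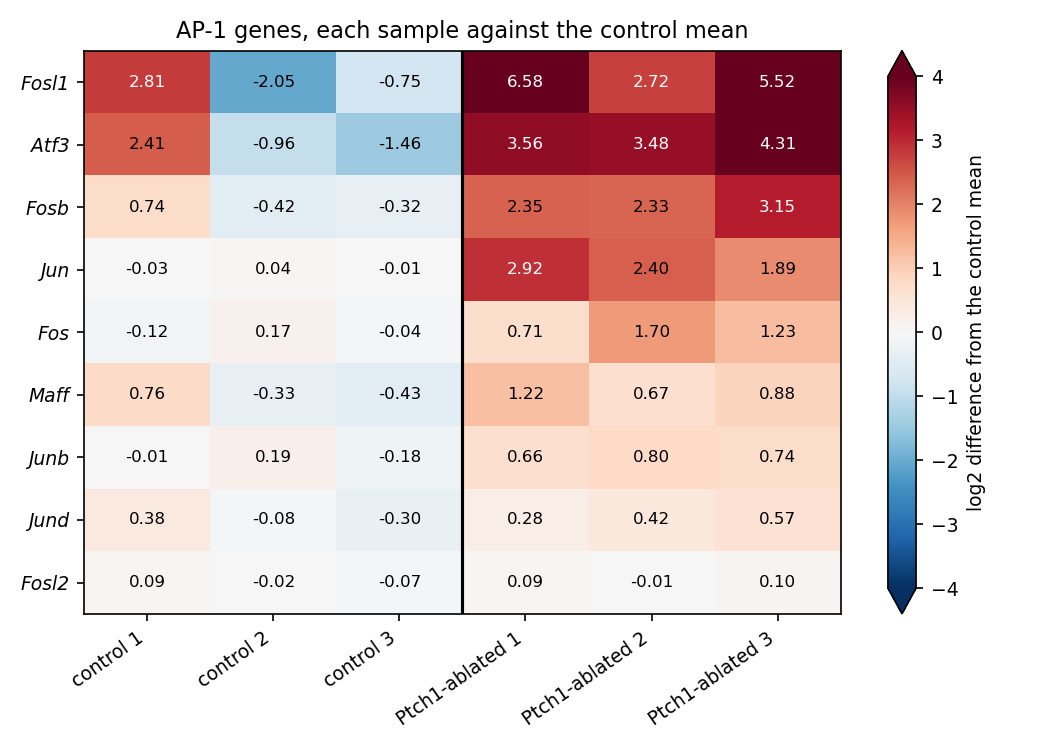
Each of 9 AP-1 genes in each sample, as the log2 difference of its normalized counts from the control mean, from blue (below) over white to red (above), with colour saturated beyond 4. Fosl1, Atf3, Fosb and Maff are above their control mean in control replicate 1, and Jun and Fos put the Ptch1-ablated samples in different orders.

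The AP-1 genes did not all peak in the same sample. Among the 9 tested, the highest value was in Ptch1-ablated replicate 1 for 3 genes (Fosl1, Jun and Maff), in replicate 2 for 2 genes (Fos and Junb) and in replicate 3 for 4 genes (Fosb, Fosl2, Jund and Atf3). On the log2 scale relative to the control mean, Jun stood at 2.92, 2.40 and 1.89 in Ptch1-ablated replicates 1, 2 and 3, and Fos at 0.71, 1.70 and 1.23, so the sample with the most Jun had the least Fos of its group. Among the control samples, 6 of the 9 genes peaked in replicate 1 and 3 in replicate 2. Control replicate 1 was 2.81 above the control mean for Fosl1, 2.41 for Atf3, 0.76 for Maff and 0.74 for Fosb, but -0.03 for Jun and -0.12 for Fos.

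**Figure D3:**
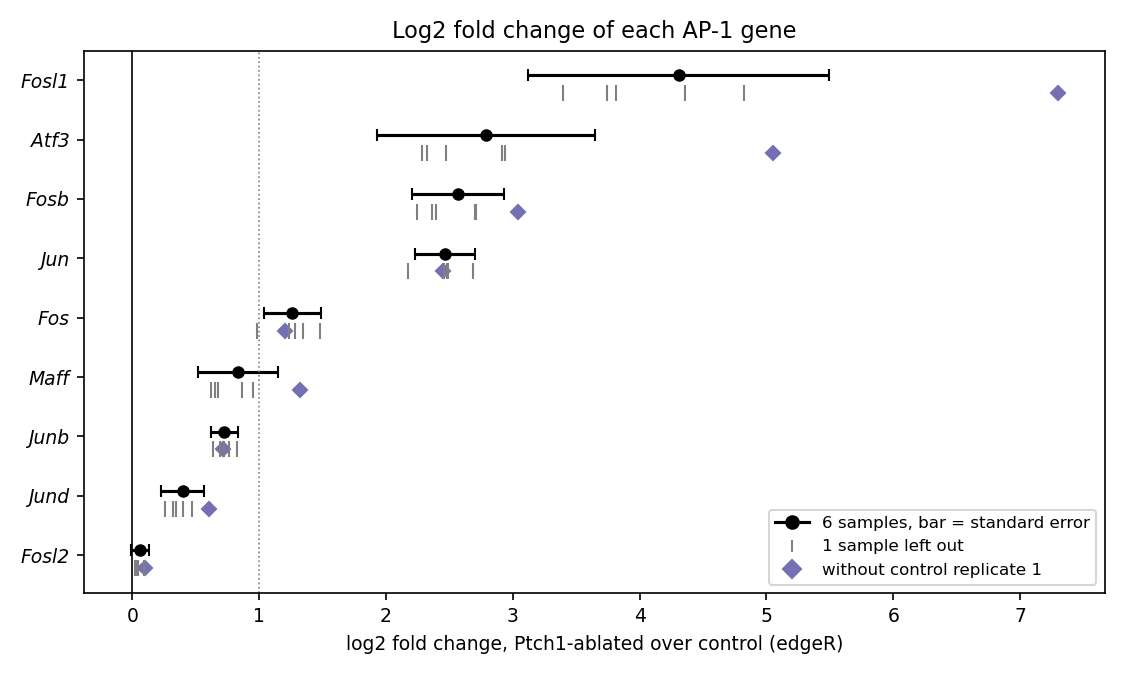
Log2 fold change of Ptch1-ablated over control epithelium for 9 AP-1 genes (black points, bars 1 standard error, 3 samples a group), with grey ticks and purple diamonds for fits with 1 sample left out and a dotted line at a fold change of 2. All points lie above 0, and the diamonds (without control replicate 1) of Fosl1 at 7.30 and Atf3 at 5.05 lie furthest from the value with all samples.

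The composition of the Fos and Jun pools was taken as the share of each gene in the summed TPM of its family, since TPM is scaled for length. The summed Fos family TPM was 370, 382 and 359 in control replicates and 520, 688 and 684 in Ptch1-ablated replicates, a ratio of means of 1.70. The summed Jun family TPM was 725, 776 and 632 in control replicates and 1315, 1343 and 1295 in Ptch1-ablated replicates, a ratio of 1.85. Both sums were higher in every Ptch1-ablated sample. The Jun sum was 1.92 ± 0.141 times the Fos sum in control and 2.13 ± 0.351 times in Ptch1-ablated epithelium (SD, n = 3 each), with overlapping ranges of 1.76 to 2.03 and 1.89 to 2.53.

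In the Fos pool, Fosl2 held 63.1%, 59.4% and 61.7% in control replicates and 43.1%, 31.9% and 36.4% in Ptch1-ablated replicates, with no overlap, although its own TPM was level. Fosb held 3.22 ± 1.49% in control and 11.0 ± 3.52% in Ptch1-ablated epithelium (SD, n = 3 each), also with no overlap. Fos held 31.0%, 38.3% and 35.7% in control replicates and 37.6%, 59.6% and 45.1% in Ptch1-ablated replicates, so that its share overlapped between the groups while its TPM did not. The difference in its mean share was 12.4 percentage points, and 6.33 without Ptch1-ablated replicate 2. Fosl1 held 0.347 ± 0.526% in control and 4.36 ± 4.31% in Ptch1-ablated epithelium, with overlap. Of the difference of 260 TPM between the group means of the pool, Fos made up 67.3%, Fosb 22.3%, Fosl1 9.09% and Fosl2 1.36%.

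In the Jun pool, Jun held 7.85%, 8.02% and 9.66% in control replicates and 32.0%, 23.0% and 17.6% in Ptch1-ablated replicates. Junb held 68.9 ± 3.94% and 60.0 ± 4.95%, and Jund held 22.6 ± 4.26% and 15.8 ± 2.50% (SD, n = 3 each). None of the 3 shares overlapped between the groups, and those of Junb and Jund were lower in Ptch1-ablated epithelium although the mean TPM of each was higher. Of the difference of 606 TPM between the group means, Junb made up 49.5%, Jun 42.7% and Jund 7.72%. Jun was thus the Jun family gene with the larger fold, and Junb the one with the larger difference in TPM.

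**Figure D4:**
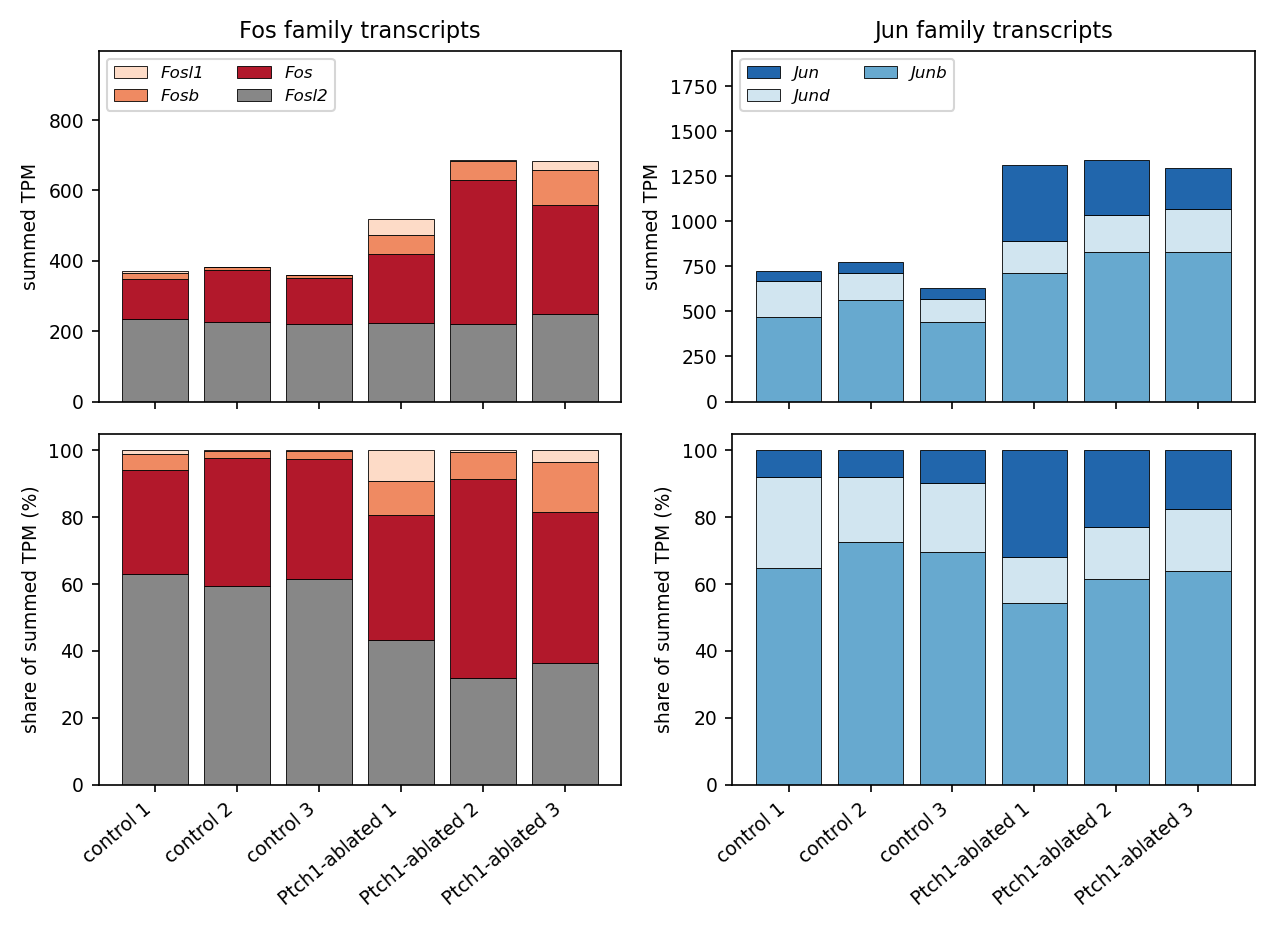
Stacked bars of the Fos family (left) and Jun family (right) in each of the 6 samples, as summed TPM (top) and as percent of the sum (bottom), each colour a gene. Fosl2 (grey) keeps its height in TPM and falls from 59.4% or more of the Fos pool in control samples to 43.1% or less in Ptch1-ablated samples, and Jun (dark blue) grows from 9.66% or less of the Jun pool to 17.6% or more.

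The order of the levels followed from these values. In control epithelium the means ran from Junb (490 TPM) over Fosl2 (227), Jund (161), Fos (130), Jun (60.1), Maff (21.5), Fosb (11.9), Atf3 (8.83) and Fosl1 (1.28) to Batf (0.080). The ranges of Jund and Fos overlapped, as did those of each neighbour from Maff to Batf, while Junb, Fosl2 and Jun were apart from their neighbours. In Ptch1-ablated epithelium the order was Junb (791 TPM), Jun (319), Fos (305), Fosl2 (231), Jund (207), Fosb (69.9), Atf3 (61.5), Maff (36.9), Fosl1 (24.9) and Batf (0.653). Jun, Fos, Fosl2 and Jund overlapped from neighbour to neighbour. The ratio of Jun to Fos, in TPM, was 0.495, 0.425 and 0.476 in control replicates and 2.15, 0.754 and 0.738 in Ptch1-ablated replicates, with no overlap, and replicate 1 set apart from replicates 2 and 3.

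Genes with a profile like Fos or Jun over the 6 samples were ranked by the root mean square difference in log2 normalized counts, each taken relative to its control mean, among the 10314 genes whose mean reached 100 normalized counts. Nearest to Fos were Fry (0.303), Ifi209 (0.316), Klf7 (0.346), Hap1 (0.353) and Tbc1d1 (0.354), where the median gene was at 0.926. They spread less among the Ptch1-ablated samples than Fos, which measured 4100, 8189 and 5881 normalized counts there. Fry, for example, measured 553, 558 and 579. Among those nearest to Jun were Akr1b8 (0.186), Krt14 (0.261), Tnfrsf23 (0.264) and Dusp1 (0.291), where the median gene was at 1.74. These 4 had their order of Ptch1-ablated samples in common with Jun, replicate 1 highest and replicate 3 lowest. They were picked for nearness to Jun in these same samples, so a shared order is largely set by the choice. Krt14, the basal epithelial keratin, measured 93094, 48670 and 35435 normalized counts there and 7760 to 9282 in control samples. Among the AP-1 genes, Junb was nearest to Fos (0.426), and Fosb (0.685) was nearest to Jun among those tested.

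Of 34 other basic leucine zipper genes tested, from the CREB, ATF, C/EBP, Maf, NRF, PAR and related families, 2 were called higher (5.88%, against 2.34% of all genes tested) and 0 lower, with a median log2 fold change of 0.07. On the adjusted p alone, 3 were higher and 4 lower, among the latter the PAR factors Tef (-0.92, SE 0.23, edgeR adjusted p = 0.0415) and Hlf (-0.54, SE 0.14, edgeR adjusted p = 0.0421). Of all 12999 genes tested, 989 were higher and 833 lower on the adjusted p alone. Maf, a large Maf protein, rose from 4.97, 3.93 and 14.56 to 67.19, 27.71 and 33.85 normalized counts (log2 fold change 2.43, SE 0.55, edgeR adjusted p = 0.0317). Creb5 rose from 42.73, 16.71 and 12.62 to 136, 82.10 and 68.69 normalized counts (1.99, SE 0.47, edgeR adjusted p = 0.0355). Creb1, which binds the cAMP response element, did not pass the test, with a log2 fold change of 0.09 (SE 0.10, edgeR adjusted p = 0.564). Maf and Creb5 were not both called in every fit. The list had 0 called genes without control replicate 2 and 0 without Ptch1-ablated replicate 1, fits that called 59 and 273 genes in all. It had 1 without control replicate 1 or 3 (250 and 254 in all). It had 1 higher and 2 lower without Ptch1-ablated replicate 2 (395 in all).

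The kinases and factors that act on Fos and Jun genes or proteins were 39 tested genes, of which 1 was called higher (2.56%, against 2.34% of all genes tested) and 0 lower, with a median log2 fold change of 0.05. That share of called genes is near the background. In 14 of the 39 (35.9%, against 19.7% of all genes tested) all Ptch1-ablated samples lay above all control samples. The called gene was Map3k8 (TPL2), a MAP kinase kinase kinase of inflammatory signals, at 218, 230 and 272 normalized counts in control and 640, 431 and 454 in Ptch1-ablated samples (1.08, SE 0.17, edgeR adjusted p = 0.0125). Srf, the factor that binds the CArG box, measured 988, 1053 and 996 against 1476, 1248 and 1560 normalized counts (0.50, SE 0.09, edgeR adjusted p = 0.0193), which is past the p threshold and under the fold threshold. On the adjusted p alone, 7 of the 39 genes were higher and 2 lower, against 989 higher and 833 lower of all 12999 genes tested. The 2 lower were the p38 kinases Mapk11 (-0.64, SE 0.13, edgeR adjusted p = 0.0256) and Mapk12 (-0.51, SE 0.12, edgeR adjusted p = 0.0375). Mapk8, the Jun kinase JNK1, had a log2 fold change of 0.50 (SE 0.10, edgeR adjusted p = 0.0204). Elk1, a partner of Srf, had -0.09 (SE 0.14, edgeR adjusted p = 0.698). Elk3 had 0.57 (SE 0.07, edgeR adjusted p = 0.00769), under the fold threshold, and Elk4 had 0.24 (SE 0.12, edgeR adjusted p = 0.186). Map3k8 was not called without control replicate 2 or without Ptch1-ablated replicate 1, fits that called 59 and 273 genes in all. These are transcript levels, and say nothing of kinase activity.

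Factors that act on the stability or activity of Fos and Jun proteins were 17 tested genes, of which 1 was called higher (5.88%, against 2.34% of all genes tested) and 0 lower, with a median log2 fold change of 0.07. Bcl3, an IκB family coactivator, rose from 499, 403 and 525 to 1727, 1422 and 1494 normalized counts (1.70, SE 0.12, edgeR adjusted p = 0.00263). Fbxw7, the ubiquitin ligase subunit that recognizes phosphorylated Jun, measured 594, 564 and 540 against 853, 829 and 735 normalized counts (0.51, SE 0.08, edgeR adjusted p = 0.0146), under the fold threshold.

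Genes commonly named as AP-1 targets were 32 tested genes, of which 10 were called higher (31.3% of the list, against 2.34% of all genes tested) and 0 lower, with a median log2 fold change of 0.86. Sprr1b, a cornified envelope precursor, went from 2.98, 4.92 and 1.94 to 8069, 1683 and 2910 normalized counts (edgeR adjusted p = 0.00376), and Ptgs2, the prostaglandin synthase COX-2, from 2.98, 0.98 and 2.91 to 3118, 283 and 545 (edgeR adjusted p = 0.0133). Control counts were too few to state a fold for these 2 genes. Krt16, a keratin of activated epithelium, rose from 297, 79.6 and 225 to 42764, 14424 and 10096 normalized counts (6.80, SE 0.75, edgeR adjusted p = 0.00647). The matrix metalloproteinases Mmp13 (4.59, SE 0.67, edgeR adjusted p = 0.0110) and Mmp10 (3.43, SE 0.49, edgeR adjusted p = 0.0107) rose as well. Their folds also rest on low control levels, at 5.96, 6.88 and 6.79 normalized counts for Mmp13 and 9.94, 12.78 and 2.91 for Mmp10. Flg, the filaggrin gene, was called at 0.97 to 1.99 normalized counts in control and 11.95 to 13.34 in Ptch1-ablated samples. In Sprr1b, Ptgs2, Krt16, Mmp13 and Mmp10 the top Ptch1-ablated sample was replicate 1, as in Jun, whereas in Flg it was replicate 2. How many of all genes tested peaked in replicate 1 was not taken, so no link to Jun is read from this. On the adjusted p alone, where 989 of all 12999 genes tested were higher and 833 lower, 14 of the list were higher and 3 lower. The latter were Ccnd1 (-0.56, SE 0.12, edgeR adjusted p = 0.0267), F3 (-0.57, SE 0.14, edgeR adjusted p = 0.0413) and Gstp1 (-0.29, SE 0.07, edgeR adjusted p = 0.0409). Sprr1b, Ptgs2, Mmp13 and Flg had under 10 normalized counts in every control sample. They passed the count filter only through the Ptch1-ablated samples, where they were high, so the count of called targets leans on that filter. With at least 10 counts in every sample, 6 of 25 targets were called, against 334 of all 12249 genes tested. The list names genes by their reputation, and no binding was measured. It was chosen with earlier results of these data known, so its share of called genes is a description. Without control replicate 2 the targets called were 2 of 32, where the fit called 59 of all 13219 genes tested. Without Ptch1-ablated replicate 1 they were 6 of 32, where it called 273 of 13164.

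**Figure D5:**
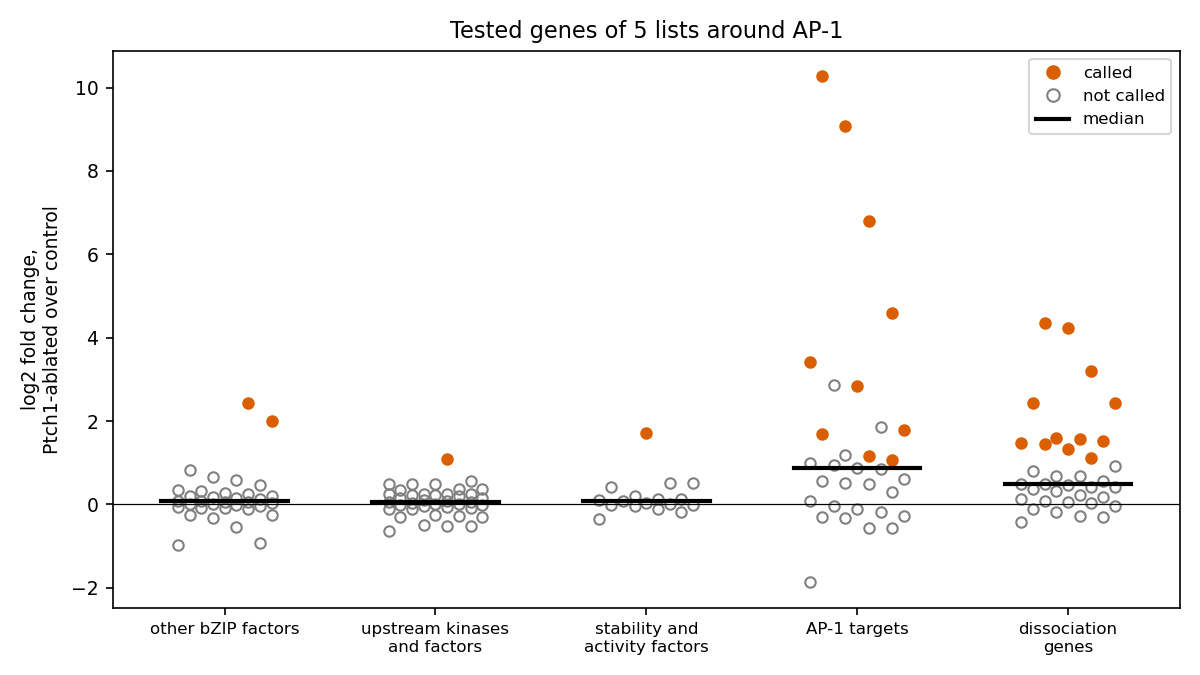
Log2 fold change of Ptch1-ablated over control epithelium for each tested gene of 5 lists (34 other bZIP factors, 39 upstream kinases and factors, 17 stability and activity factors, 32 AP-1 targets and 36 dissociation genes), with called genes filled and black bars at the list medians. The medians are 0.07, 0.05, 0.07, 0.86 and 0.48, and the horizontal spread has no meaning. The 2 highest points among the targets, Sprr1b and Ptgs2, rest on control levels of under 5 normalized counts.

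Fos, Jun and their relatives also belong to the genes that can rise while a tissue is taken apart. Of 36 other immediate early and heat shock genes known for this, all tested, 12 were called higher (33.3%, against 2.34% of all genes tested) and 0 lower, with a median log2 fold change of 0.48, and in 25 (69.4%, against 19.7% of all genes tested) all Ptch1-ablated samples lay above all control samples. Socs3, the feedback inhibitor of STAT3, rose from 31.80, 22.61 and 12.62 to 571, 329 and 465 normalized counts (4.34, SE 0.32, edgeR adjusted p = 0.00263). Nr4a1 (3.21, SE 0.23, edgeR adjusted p = 0.00263), Dusp1 (2.43, SE 0.33, edgeR adjusted p = 0.00947) and Btg2 (1.59, SE 0.11, edgeR adjusted p = 0.00263) rose too. Egr3 had 1.99, 0 and 0 normalized counts in control and 22.74, 10.26 and 10.95 in Ptch1-ablated samples, and Egr2 had 4.97, 2.95 and 2.91 against 29.98, 11.29 and 18.92, and both were called. None of the heat shock genes of the list reached the fold threshold. Hspa8 (0.48, SE 0.10, edgeR adjusted p = 0.0236) and Hspa1b (0.41, SE 0.09, edgeR adjusted p = 0.0307) were past the p threshold, while Hspa1a (0.06), Dnajb1 (0.31) and Hspb1 (-0.27) were not. Without control replicate 2 the genes called in this list were 5 of 36, where the fit called 59 of all 13219 genes tested. Without control replicate 3 they were 6 of 36, where it called 254 of 13200. Egr3 and Egr2 passed the count filter only through the Ptch1-ablated samples. With at least 10 counts in every sample, 10 of 33 genes of the list were called, against 334 of all 12249 genes tested. This list too was chosen with earlier results of these data known, so its share of called genes is a description.

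The mean log2 normalized count of the 36 dissociation genes was 10.28, 10.11 and 9.96 in control replicates 1, 2 and 3 and 11.15, 10.97 and 10.80 in Ptch1-ablated replicates. The Ptch1-ablated samples thus stood in the order in which Jun stood, with replicate 1 the highest, and not in the order of Fos. The highest value was in Ptch1-ablated replicate 1 for 20 of these 36 genes. The matching share of all genes tested was not taken. Relative to the sampling variance of counts, Ptch1-ablated replicate 1 differed more from replicates 2 and 3 than those differed from each other. The shared order is therefore a description, and nothing about handling is read from it. The part of the tissue handling in the AP-1 values was not tested.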

How the data were processed

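Corneal epithelial RNA of 3 control and 3 Ptch1-ablated samples was sequenced, and groups and replicate numbers come from the labels. The authors aligned clean reads with Bowtie2 2.2.5 and quantified genes with RSEM 1.2.12 (versions and build mm9 from the submitters' processing notes), which splits reads shared by near-identical genes. They deposited RSEM expected counts without depth scaling, of which 39.4% above 0 are not whole numbers, TPM values scaled for length and depth, and FPKM values, which the deposited tables also hold and which were not used here. The number of other per-sample columns used was 0.

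Expected counts were rounded and tested with edgeR 4.0.16 (TMM, filterByExpr, glmQLFit and glmQLFTest, R 4.3.3), with Benjamini-Hochberg adjustment over all 12999 tested genes. The thresholds for a call, an adjusted p up to 0.05 and a fold of 2 or more, are those of the study, which names no test. Normalized counts are TMM-scaled counts at the mean library size, and SE was derived from the log2 fold change and the quasi-likelihood F (its size over the root of F). The fit was tested on simulated data. Total expected counts (20296741 to 20625813 per sample) set the precision of counting alone, and 3 counts was taken as the floor. Pool shares use TPM without a pseudocount. Within-group pairs of samples differed by 10.5 to 40.0 times the sampling variance of counts, so no library was counted as a repeat of another.

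Named genes were all 10 AP-1 genes, Ptch1, the called genes of 5 lists (up to 6 each by log2 fold change), Creb1, Srf, Elk1, Mapk8, Fbxw7 and the 5 nearest profiles of Fos and of Jun, of which some are not reported here; the epithelial, stromal, leukocyte and conjunctival markers are given as sums, and 5 endothelial and nerve markers summed to 1.46 to 2.52 TPM. The heat shock genes, Tef, Hlf, Mapk11, Mapk12, Elk3, Elk4, Ccnd1, F3 and Gstp1 were chosen for the text after their values were seen. So were the single epithelial, leukocyte and conjunctival markers and the positions of motifs. The AP-1 genes and the lists were chosen with earlier results of these data known. Sequences come from RefSeq windows (GRCm38.p6) matched by symbol, and exon numbers from GENCODE principal transcripts; no value was read from the files by coordinates. Alternatives were DESeq2 1.42.0, limma 3.58.1 (voom on counts, and log2 of TPM plus 1 or plus 0.1), RLE factors, other filters, no fold threshold, a replicate block and leaving out samples.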

Additional observations from a re-analysis of the deposited data

How the results depend on the processing

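The 134 values of the AP-1 log2 fold changes under the alternatives (Fosl1 has none at the minimum of 10 counts in every sample, which it did not pass) were all above 0, and 3 moved by more than 1 SD: Fosl1 to 7.30 and Atf3 to 5.05 without control replicate 1, and Atf3 to 5.18 without both replicates numbered 1, an alternative chosen after seeing the data. Of 16 alternatives, Jun was called in 16, Fosb in 15, Fos in 12, Atf3 in 5, Fosl1 in 4, Maff in 2, Junb in 1, and Fosl2, Jund and Batf in 0. The causes of these changes were not tested.

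Leaving out 1 sample moved the genes called from 420 to between 59 and 430, AP-1 genes from 3 to between 1 and 4, other bZIP genes from 2 to between 0 and 3, upstream genes from 1 to between 0 and 1, targets from 10 to between 2 and 10 and dissociation genes from 12 to between 5 and 13. The lowest counts were without control replicate 2. Without both replicates numbered 1, the fit called 6 AP-1 genes, 1 other bZIP gene and 0 upstream genes. Without a minimum fold, 1822 of 12999 genes passed, with 4 AP-1, 7 other bZIP, 9 upstream, 3 turnover, 17 target and 18 dissociation genes. With at least 10 counts in every sample, 1 other bZIP gene and 6 targets were called. limma on log2(TPM + 1) called 234 genes, with 0 other bZIP and 0 upstream genes, and limma on log2(TPM + 0.1) called 0 other bZIP genes and 6 targets. DESeq2 called 487 genes and limma-voom 391.

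The replicate numbers were checked for pairing: deviations of samples with the same number correlated at 0.102, -0.037 and 0.011 over 12999 genes. The samples numbered 1 correlated best with each other, whereas control replicate 2 correlated best with Ptch1-ablated replicate 3 (0.189). With 3 samples a group, such correlations cannot tell whether samples of the same number share more than the number. With the replicate block, 390 genes, 4 AP-1 genes (Fosl1 added), 12 targets and 12 dissociation genes were called. Low counts limit Batf and Fosl1 most.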
